A study of Mus musculus with 8 samples.

Results

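The genes described here encode the machinery of transport between the endoplasmic reticulum (ER) and the Golgi apparatus: the COPII and COPI coats, cargo and KDEL receptors, p24 proteins, Golgi tethers and SNAREs. The 52 genes were chosen by function, though with earlier results of these data known. All 52 were found among the 52551 rows of the count files. Enough counts for a test were present for 50 of them. Gene expression was measured by QuantSeq, which reads the 3' end of messenger RNAs, in the liver of male C57BL/6 mice aged 6 weeks. The 4 PiZ libraries come from livers with a human SERPINA1 transgene, whose product, the Z form of alpha-1 antitrypsin, misfolds in the ER of hepatocytes. The 4 PiZ/Chop-/- libraries come from livers that carry the same transgene and lack Chop, the gene Ddit3, which encodes the ER stress transcription factor CHOP. Transgene and disease model are thus common to both groups, and no liver without PiZ was analysed here. Neither the promoter of the transgene nor the extent of the Chop deletion is stated in the labels. Nor do they tie each library to a mouse of its own, so the p-values reflect only the spread among the libraries, which may be technical.

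Newly folded secretory proteins leave the ER in vesicles coated with COPII. The GTPase SAR1, switched on by PREB, recruits SEC23 and SEC24, and SEC13 with SEC31 form the outer cage. Receptors such as LMAN1 with MCFD2, and SURF4, link soluble cargo to that coat, and alpha-1 antitrypsin is among the proteins known to use them. The COPI coat and the KDEL receptors return escaped ER residents from the Golgi. Hepatocytes secrete most plasma proteins by this route, and many of its genes are known targets of the unfolded protein response (UPR), the ER stress program.

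Library totals ran from 1650260 to 3064385 counts, and 8669 genes were tested. Levels are given as CPM, which is the count relative to the library total, with TMM scaling, and log2 fold changes are PiZ/Chop-/- over PiZ with the standard error (SE). Adjusted p-values come from edgeR's quasi-likelihood test over all 8669 genes, with a threshold of 0.05. Ddit3 stood at 191, 141, 191 and 85.4 CPM in the PiZ libraries, numbered 1 to 4, and at 3.72, 1.72, 2.48 and 4.19 CPM in those of PiZ/Chop-/- (log2 fold change -5.60, SE 0.34, adjusted p = 2.35e-07), so it followed the label in each library. The transgene SERPINA1 was at 950 to 1845 CPM in PiZ and 554 to 712 CPM in PiZ/Chop-/- (-1.23, SE 0.22, adjusted p = 0.00873), and at -1.19 with adjusted p = 0.0575 without PiZ/Chop-/- library 3. PiZ/Chop-/- library 2 stood apart from its group in the transport genes and in UPR genes, and results are given with and without it where it mattered. It was singled out by these same values, so results without it are no separate support. The hepatocyte markers Alb, Apoa1, Ttr, Trf, Fgb, Hnf4a, Cps1 and Ass1 were all tested, and their summed level was 49000 to 55300 CPM in PiZ and 54400 to 60300 CPM in PiZ/Chop-/-.

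None of the 50 tested transport genes passed the threshold, against 1.03% of all genes tested, so no single gene of the pathway was shown to differ. DESeq2 and limma-voom called none either. The fold changes leaned one way: 42 of 50 were below 0, with a median of -0.27 and a range from -1.23 to 0.51, whereas over all 8669 genes 50.2% were below 0 and the median was -0.0016. An unadjusted p under 0.05 was reached by 11 of the 50, all lower in PiZ/Chop-/-, where 6.85% of all genes did so in that direction. In 5 transport genes (Surf4, Preb, Uso1, Gorasp2 and Bet1) every PiZ/Chop-/- library lay below every PiZ library, a pattern seen in 4.22% of all genes. The opposite pattern was seen in 0 of 50 and in 3.66% of all genes. In whole liver, fewer cells of a type and less RNA per cell cannot be told apart.

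**Figure D1:**
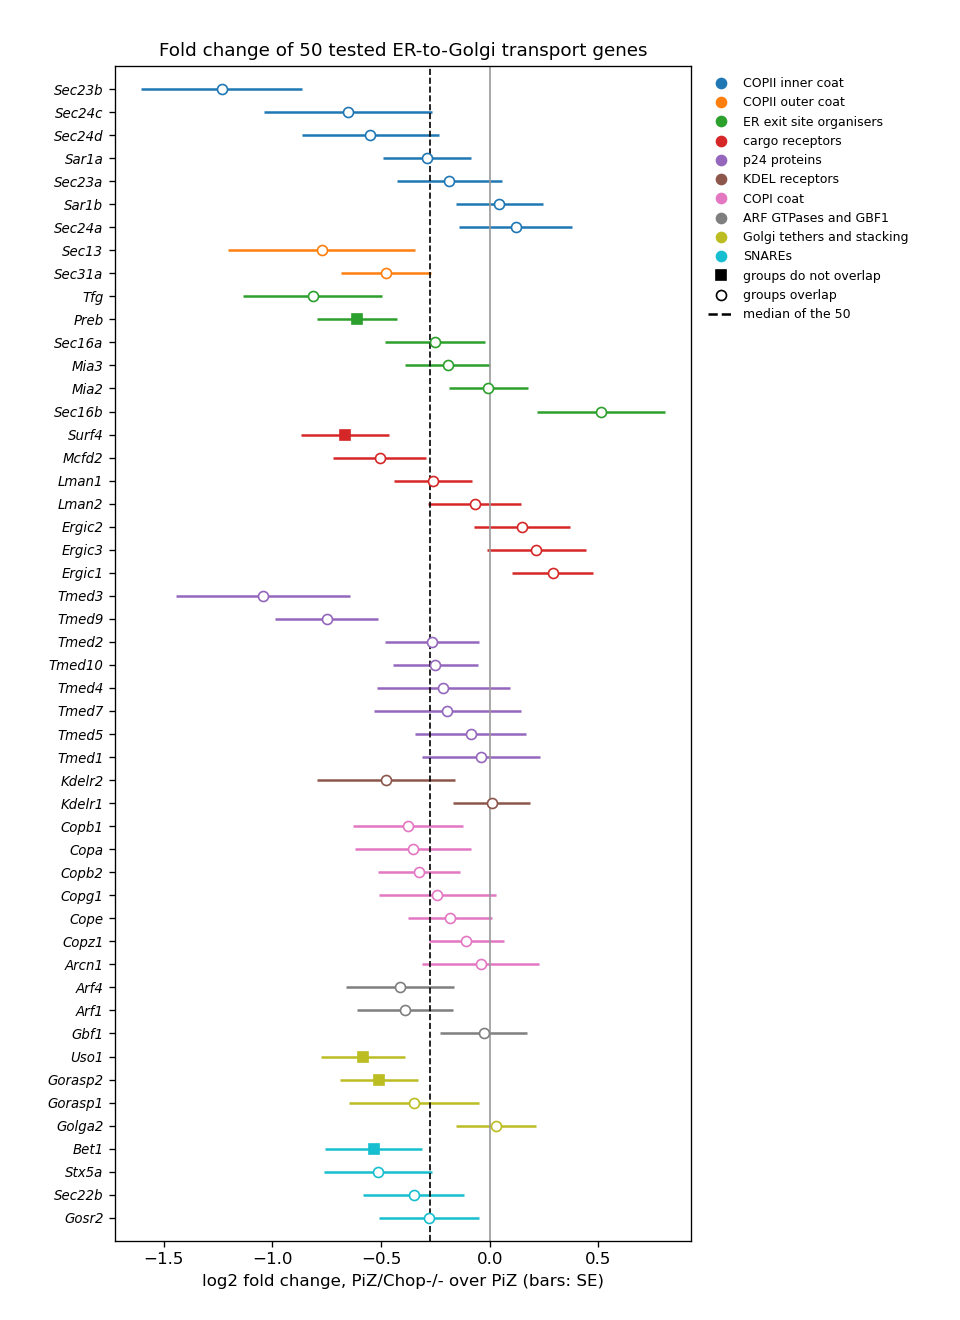
Log2 fold change (PiZ/Chop-/- over PiZ, horizontal axis, bars SE) of the 50 tested transport genes, coloured by functional class; filled squares mark the 5 genes whose groups did not overlap and the dashed line the median of -0.27. Most points lie left of 0, from Sec23b at -1.23 to Sec16b at 0.51, and none passed the adjusted threshold.

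The COPII inner coat opens the export step, and the fold changes of its 7 tested genes ran from -1.23 to 0.12, none past the threshold. Sec23b (ENSMUSG00000027429, chr2:144556229-144590749 in mm10), which encodes one of a pair of SEC23 paralogs that form the inner shell, had the most negative value of all 50. It was at 14.8, 15.6, 23.5 and 43.2 CPM in the 4 PiZ libraries and at 8.36, 16.7, 7.94 and 8.85 CPM in the 4 PiZ/Chop-/- libraries. PiZ library 4 was the highest and PiZ/Chop-/- library 2 reached into the PiZ range, so the groups overlapped. Group means were 24.2 ± 13.2 and 10.5 ± 4.16 CPM (SD, n = 4 each), and edgeR gave -1.23 ± 0.37 (log2 fold change ± SE; adjusted p = 0.155). Without PiZ library 4 the fold change was -0.80. The paralog Sec23a was at 26.7 to 37.0 CPM in PiZ and 18.1 to 35.6 CPM in PiZ/Chop-/- (-0.19, SE 0.24). The ratio of Sec23b to Sec23a, on the log2 CPM scale, was -0.47 ± 0.60 in PiZ and -1.34 ± 0.34 in PiZ/Chop-/- (SD, n = 4 each; exact two-sided permutation p = 0.0857, adjusted p = 0.314 over 11 paralog pairs), so the paralogs were not shown to differ in response.

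The SEC24 paralogs select cargo. Sec24d had 35.1, 33.0, 32.1 and 57.9 CPM in the PiZ libraries and 19.1, 41.4, 14.4 and 33.5 CPM in the PiZ/Chop-/- libraries (log2 fold change -0.55, SE 0.31, adjusted p = 0.486). Its SD within PiZ/Chop-/- was about as large as the gap between the group means, and without PiZ library 4 the fold change was -0.29. Sec24c had -0.65 (SE 0.39) and Sec24a 0.12 (SE 0.26). Sec24c was at 72.6 CPM in PiZ library 4 and at 16.03 to 28.9 CPM in the other PiZ libraries, and without library 4 its fold change was -0.043. Sec24b had 76 counts over the 8 libraries and was not tested (4.84 and 4.21 CPM on average in PiZ and PiZ/Chop-/-). The SAR1 GTPases, which start coat assembly, had -0.29 (Sar1a, SE 0.20) and 0.044 (Sar1b, SE 0.20).

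The outer cage genes were both below 0. Sec31a was at 98.4, 70.0, 80.1 and 106 CPM in PiZ and 46.0, 70.7, 66.5 and 71.3 CPM in PiZ/Chop-/- (log2 fold change -0.48, SE 0.21, adjusted p = 0.341). PiZ library 2 lay within the PiZ/Chop-/- range. Sec13, which also serves the nuclear pore, was at 14.8, 7.77, 7.07 and 22.3 CPM in PiZ and 5.11, 13.2, 5.46 and 6.52 CPM in PiZ/Chop-/- (-0.77, SE 0.43, adjusted p = 0.465). Its high libraries were PiZ 1 and 4 and PiZ/Chop-/- 2, and without PiZ library 4 the fold change was -0.34.

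Among the factors that build ER exit sites, Preb and Tfg had the lowest p. Preb (ENSMUSG00000045302, chr5:30950853-30960361), the exchange factor that loads SAR1 with GTP, was at 115, 104, 108 and 142 CPM in PiZ and 69.2, 94.3, 70.5 and 73.6 CPM in PiZ/Chop-/-. The groups did not overlap, and PiZ/Chop-/- library 2 was the nearest to PiZ. Means were 117 ± 17.2 and 76.9 ± 11.7 CPM (SD, n = 4 each), and edgeR gave -0.61 ± 0.185 (log2 fold change ± SE; adjusted p = 0.160). Abhd1, on the opposite strand, overlaps all of the last 500 bases of Preb. Tfg, which organises exit sites with SEC16, was at 37.5, 18.9, 25.1 and 50.8 CPM in PiZ and 13.9, 28.7, 15.9 and 16.8 CPM in PiZ/Chop-/- (-0.81, SE 0.32, adjusted p = 0.295), with PiZ libraries 2 and 3 inside the PiZ/Chop-/- range and PiZ/Chop-/- library 2 inside the PiZ range. Its fold change was -0.51 without PiZ library 4. Sec16a, the scaffold, had -0.25 (SE 0.23), and Mia3 and Mia2, which help load bulky cargo such as collagen, had -0.19 (SE 0.20) and -0.0072 (SE 0.18).

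Sec16b, the second scaffold paralog, had the largest positive fold change of the set. It was at 9.72 to 27.1 CPM in PiZ and 20.4 to 32.3 CPM in PiZ/Chop-/- (0.51, SE 0.29, adjusted p = 0.486). The log2 ratio of Sec16b to Sec16a was -1.79 ± 0.41 in PiZ and -0.95 ± 0.54 in PiZ/Chop-/- (SD, n = 4 each), higher in every PiZ/Chop-/- library than in any PiZ library (exact two-sided permutation p = 0.0286, the smallest that 4 against 4 can give). It did not pass over the 11 paralog pairs (adjusted p = 0.314). The other 9 pairs had unadjusted exact permutation p from 0.0857 to 0.971. The pairs were chosen after the data were seen.

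**Figure D2:**
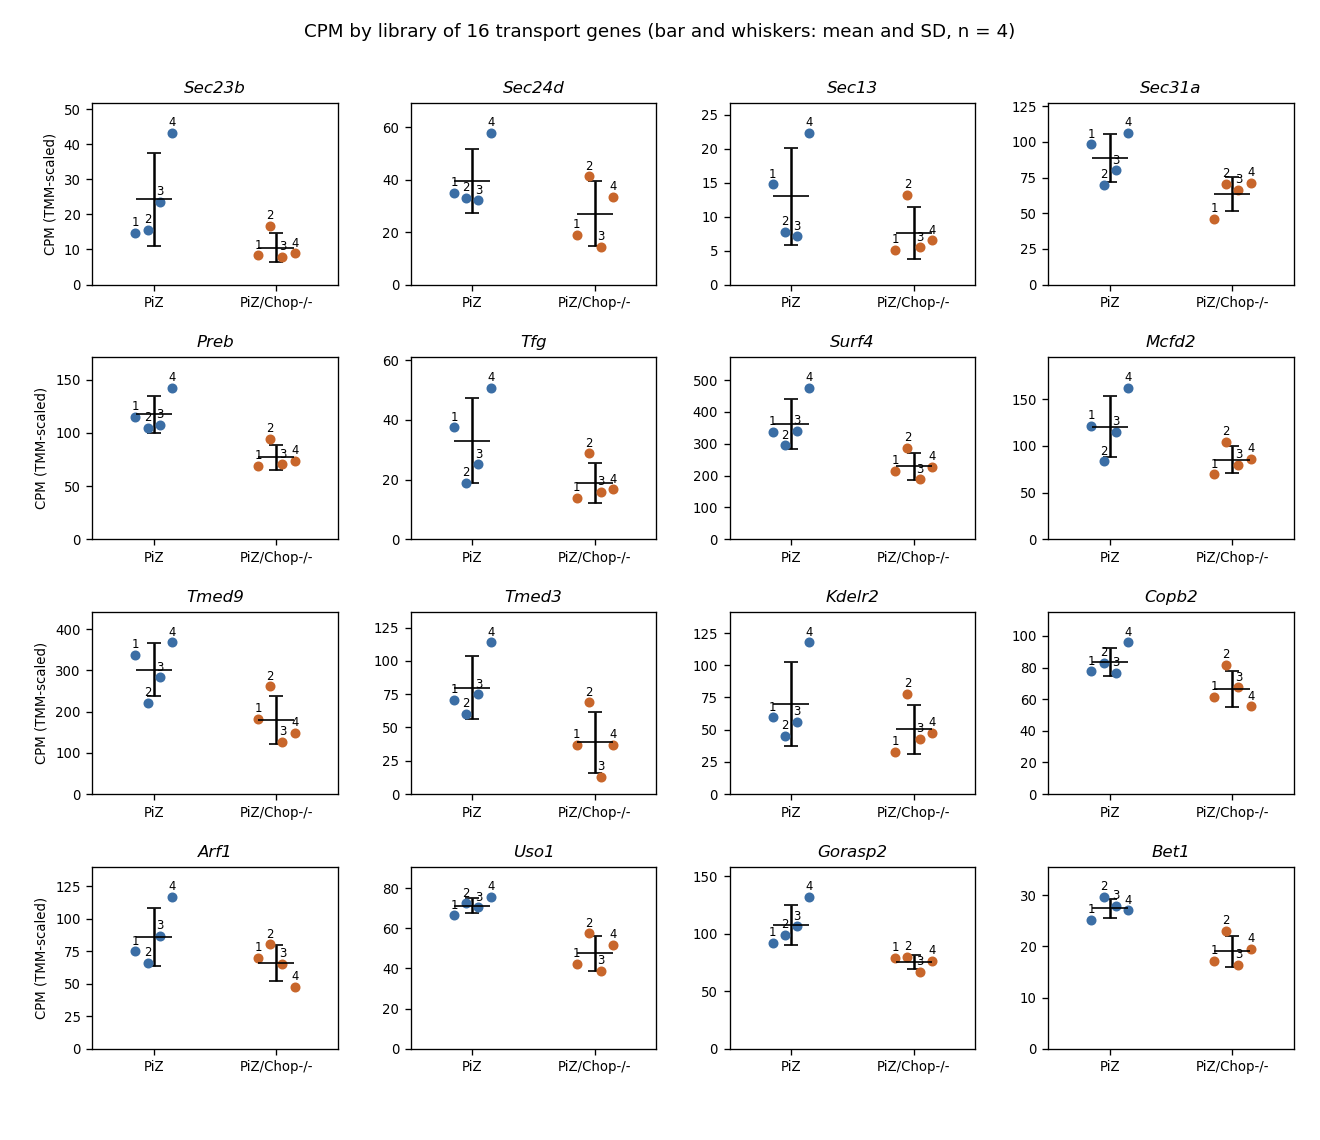
CPM (TMM-scaled, vertical axes from 0) of 16 transport genes, 1 panel each; points are libraries labelled by number, blue for PiZ and orange for PiZ/Chop-/-, and the bar and whiskers are the mean and SD (n = 4). PiZ library 4 and PiZ/Chop-/- library 2 are the highest of their group in most panels, and in the panels of Preb, Surf4, Uso1, Gorasp2 and Bet1 the groups do not overlap.

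Of the 7 cargo receptor genes, 4 were below 0 with a median of -0.070, and none passed the threshold. Surf4 (ENSMUSG00000014867, chr2:26920040-26933928), a receptor for secreted hepatocyte proteins, was at 338, 295, 342 and 476 CPM in PiZ and 214, 286, 188 and 227 CPM in PiZ/Chop-/-. The groups did not overlap, though PiZ/Chop-/- library 2 came close to PiZ library 2. Means were 363 ± 78.3 and 229 ± 41.5 CPM (SD, n = 4 each), and edgeR gave -0.67 ± 0.20 (log2 fold change ± SE; adjusted p = 0.160). Annotated on the opposite strand, Surf2 overlaps 144 of the last 500 bases of Surf4, and whether reads were counted by strand is not stated. In all, 13 of the 52 genes share part or all of their last 500 bases with another annotated gene. For Arf4, Sec23a, Sec24c, Copg1, Ergic2 and Tmed5 a gene on the opposite strand spans all 500.

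Mcfd2 and Lman1 encode the subunits of a receptor complex for coagulation factors and alpha-1 antitrypsin. Mcfd2 was at 122, 83.6, 115 and 162 CPM in PiZ and 69.7, 104, 79.9 and 86.2 CPM in PiZ/Chop-/- (log2 fold change -0.51, SE 0.21, adjusted p = 0.334). Lman1 was at 579, 425, 524 and 561 CPM in PiZ and 436, 487, 431 and 388 CPM in PiZ/Chop-/- (-0.26, SE 0.18, adjusted p = 0.567). In both genes PiZ library 2 lay within the PiZ/Chop-/- range. Lman2, a lectin related to Lman1, had -0.070 (SE 0.21). Ergic1, Ergic2 and Ergic3, membrane proteins that cycle between ER and Golgi, had 0.29 (SE 0.19), 0.15 (SE 0.22) and 0.21 (SE 0.23), none past the threshold.

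All 8 p24 genes, whose products are abundant cargo adaptors of both coats, were below 0, with a median of -0.23. Tmed9 and Tmed3 accounted for the most negative values. Tmed9 (ENSMUSG00000058569, chr13:55573732-55597697) was at 337, 220, 283 and 368 CPM in PiZ and 183, 261, 126 and 149 CPM in PiZ/Chop-/- (means 302 ± 64.7 and 180 ± 59.0 CPM, SD, n = 4 each). The log2 fold change from edgeR was -0.75 ± 0.24 (SE; adjusted p = 0.180). Tmed3 (ENSMUSG00000032353, chr9:89699206-89705068) was at 70.7, 60.2, 74.9 and 114 CPM in PiZ and 37.2, 69.0, 12.9 and 36.8 CPM in PiZ/Chop-/- (-1.04, SE 0.40, adjusted p = 0.304). In both, PiZ/Chop-/- library 2 alone reached into the PiZ range. The other 6 (Tmed1, Tmed2, Tmed4, Tmed5, Tmed7 and Tmed10) ran from -0.27 to -0.039, none past the threshold. Without PiZ libraries 1 and 4, Tmed1, Tmed4 and Tmed7 were above 0. Tmed7 shares its last 500 bases with the annotated span of Ticam2 on the same strand, so its count is uncertain.

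The KDEL receptors retrieve chaperones that carry the KDEL signal. Kdelr1 was at 263, 225, 224 and 214 CPM in PiZ and 281, 234, 220 and 197 CPM in PiZ/Chop-/- (log2 fold change 0.0087, SE 0.18). Kdelr2 was at 59.7, 45.2, 56.3 and 118 CPM in PiZ and 33.0, 77.6, 42.7 and 47.5 CPM in PiZ/Chop-/- (-0.48, SE 0.32, adjusted p = 0.559), again with PiZ library 4 and PiZ/Chop-/- library 2 highest. Without the former it was -0.085, and without the latter -0.76. Kdelr3 had 0 counts in all 8 libraries, which allows up to 0.965 to 1.85 CPM per library (3 counts, counting error only), and no fold change was computed.

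COPI, the coat of retrograde vesicles, had small values throughout: all 7 subunit genes were below 0, from -0.38 to -0.043, with a median of -0.24. Copb2 was at 77.5, 83.1, 76.5 and 95.9 CPM in PiZ and 61.3, 81.6, 67.5 and 55.4 CPM in PiZ/Chop-/- (-0.33, SE 0.19, adjusted p = 0.486). Copb1 was at 90.4, 74.3, 75.6 and 43.2 CPM in PiZ and 51.6, 71.8, 59.1 and 35.9 CPM in PiZ/Chop-/- (-0.38, SE 0.25, adjusted p = 0.559). The groups overlapped in both, and the low library of Copb1 in PiZ was library 4. Copa, Copg1, Cope, Copz1 and Arcn1 had -0.35, -0.24, -0.18, -0.11 and -0.043, with SE from 0.17 to 0.27. Without PiZ libraries 1 and 4 Copa was at 0.15 and Arcn1 at 0.13. ARF1 and ARF4 are GTPases that recruit COPI. Arf1 was at 75.0, 66.1, 86.8 and 117 CPM in PiZ and 70.2, 80.5, 65.5 and 47.5 CPM in PiZ/Chop-/- (-0.39, SE 0.22, adjusted p = 0.480). Arf4 was at 36.9, 25.3, 37.0 and 54.6 CPM in PiZ and 22.8, 33.9, 28.8 and 30.3 CPM in PiZ/Chop-/- (-0.41, SE 0.25, adjusted p = 0.509). The groups overlapped in both genes, and the exchange factor Gbf1 had -0.028 (SE 0.20).

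On the Golgi side, Uso1, Gorasp2 and Bet1 had groups that did not overlap. The spread within PiZ was narrow for Uso1 and Bet1. Uso1 (ENSMUSG00000029407, chr5:92137938-92202798) encodes p115, which tethers incoming vesicles. It was at 66.4, 72.4, 70.4 and 75.5 CPM in PiZ and 42.3, 57.5, 38.7 and 51.7 CPM in PiZ/Chop-/- (means 71.2 ± 3.78 and 47.5 ± 8.59 CPM, SD, n = 4 each). The log2 fold change from edgeR was -0.58 ± 0.19 (SE; adjusted p = 0.2). Over the 17 alternative fits its value ran from -0.68 to -0.49. Gorasp2 (ENSMUSG00000014959, chr2:70661576-70712636), a stacking protein of the Golgi, was at 92.3, 99.1, 106 and 132 CPM in PiZ and 79.0, 79.9, 67.0 and 76.4 CPM in PiZ/Chop-/- (-0.51, SE 0.18, adjusted p = 0.241). Its 3' end overlaps that of Tlk1 on the opposite strand by 230 bases. Gorasp1 and the golgin gene Golga2 had -0.35 (SE 0.30) and 0.028 (SE 0.18). Gorasp1 shares its last 500 bases with the annotated span of Cx3cr1, a macrophage gene on the same strand, so its count is uncertain.

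SNAREs fuse the vesicle with its target, and the 4 tested here (Bet1, Stx5a, Sec22b and Gosr2) form complexes at the ER-Golgi boundary. Bet1 (ENSMUSG00000032757, chr6:4076899-4086972) was at 25.2, 29.6, 28.0 and 27.1 CPM in PiZ and 17.2, 23.0, 16.4 and 19.6 CPM in PiZ/Chop-/- (log2 fold change -0.53, SE 0.22, adjusted p = 0.321). Stx5a was at 33.2, 34.5, 38.9 and 68.3 CPM in PiZ and 30.2, 33.3, 30.8 and 28.4 CPM in PiZ/Chop-/- (-0.51, SE 0.25, adjusted p = 0.389), where PiZ library 4 was far above the rest, and without that library it was -0.20. Only PiZ/Chop-/- library 2, at 33.3 CPM, passed PiZ library 1. Sec22b and Gosr2 had -0.35 and -0.28 (SE 0.23 each).

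**Figure D3:**
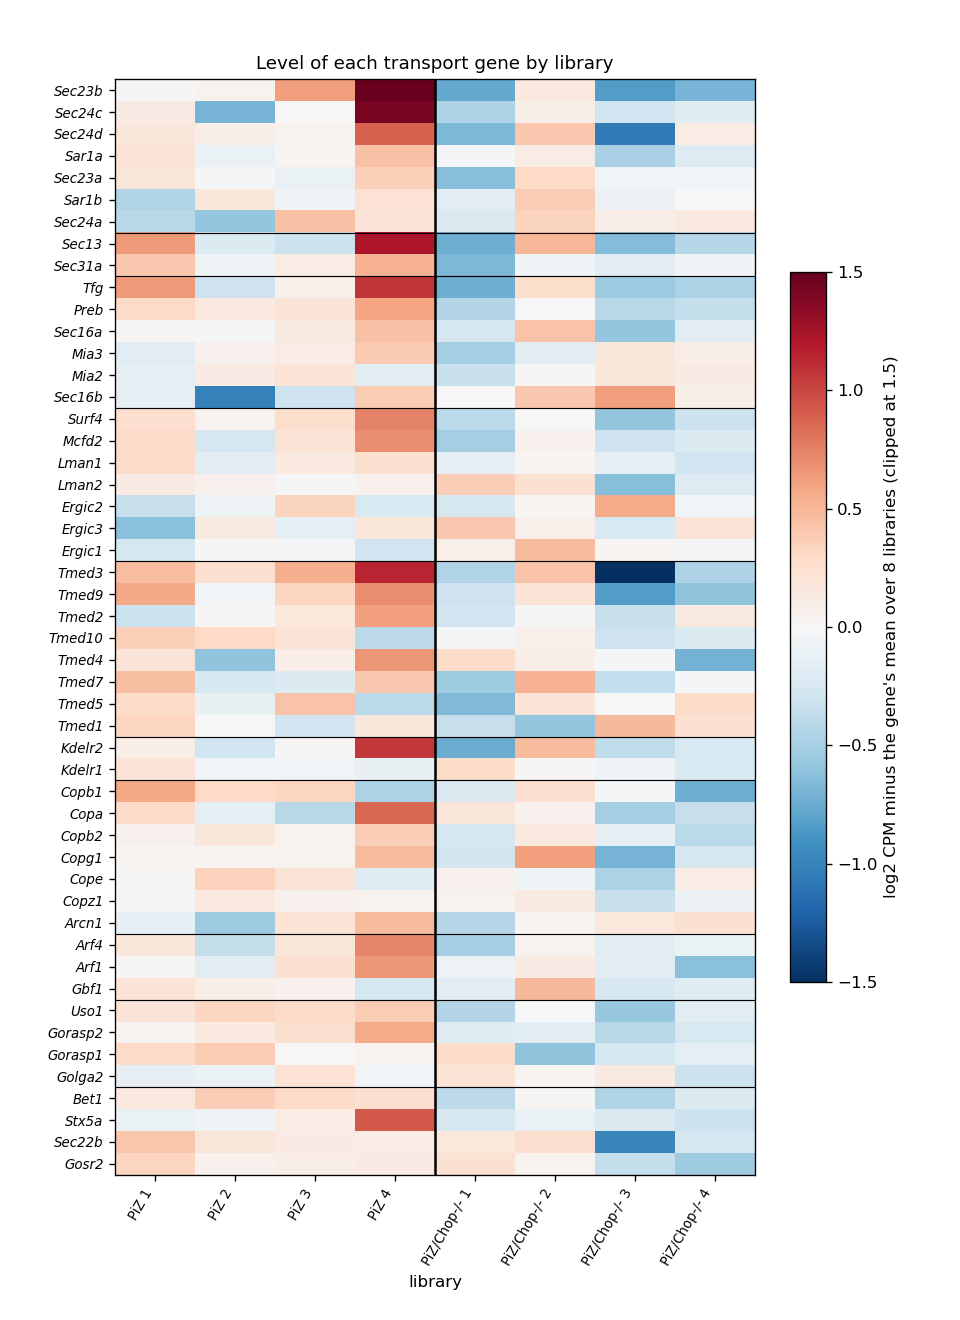
Log2 CPM of the 50 tested transport genes (rows, in functional classes separated by lines) in each library (columns), centred on the gene's mean over 8 libraries; red is above and blue below that mean. The columns of PiZ 4 and PiZ/Chop-/- 2 are mostly red (40 and 41 of 50 genes above their mean), and PiZ/Chop-/- 1, 3 and 4 are mostly blue (38, 40 and 38 genes below it).

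The transport genes tended to be high or low in the same libraries. A library's score is the median over the 50 genes of log2 CPM after each gene's mean was subtracted. It was 0.17, 0.0035, 0.12 and 0.39 in the PiZ libraries, in order of number, and -0.26, 0.091, -0.31 and -0.20 in the PiZ/Chop-/- libraries. PiZ/Chop-/- library 2 thus scored above PiZ library 2, while the other 3 libraries of its group scored below all 4 PiZ libraries. It was the highest of its group in 32 of the 50 genes, and PiZ library 4 was the highest of its group in 30.

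UPR genes followed a similar order. For 14 UPR regulators and reporters without Ddit3, the score was 0.27, -0.073, 0.23 and 0.43 in PiZ and -0.48, 0.33, -0.22 and -0.44 in PiZ/Chop-/-. Hspa5, the ER chaperone BiP, was at 7071, 4760, 5595 and 7316 CPM in PiZ and 2682, 5736, 1830 and 2015 CPM in PiZ/Chop-/- (log2 fold change -1.01, SE 0.33, adjusted p = 0.206). In Hspa5 too, PiZ/Chop-/- library 2 lay within the PiZ range, and the other 3 lay below all PiZ libraries. Without that library Hspa5 passed the threshold (-1.503, adjusted p = 0.00686), and also when low counts were not filtered (-0.99, adjusted p = 0.000255). Atf4, a translation-controlled stress factor, was at 330 to 404 CPM in PiZ and at 197, 579, 134 and 170 CPM in PiZ/Chop-/- (-0.42, SE 0.42, adjusted p = 0.730), and passed without library 2 (-1.10, adjusted p = 0.0143). Xbp1, a UPR transcription factor known to act on secretory pathway genes, went the other way, at 78.7, 99.1, 108 and 112 CPM in PiZ and 136, 147, 125 and 207 CPM in PiZ/Chop-/- (0.63, SE 0.20, adjusted p = 0.189). Gene counts at the 3' end do not tell its spliced from its unspliced form.

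**Figure D4:**
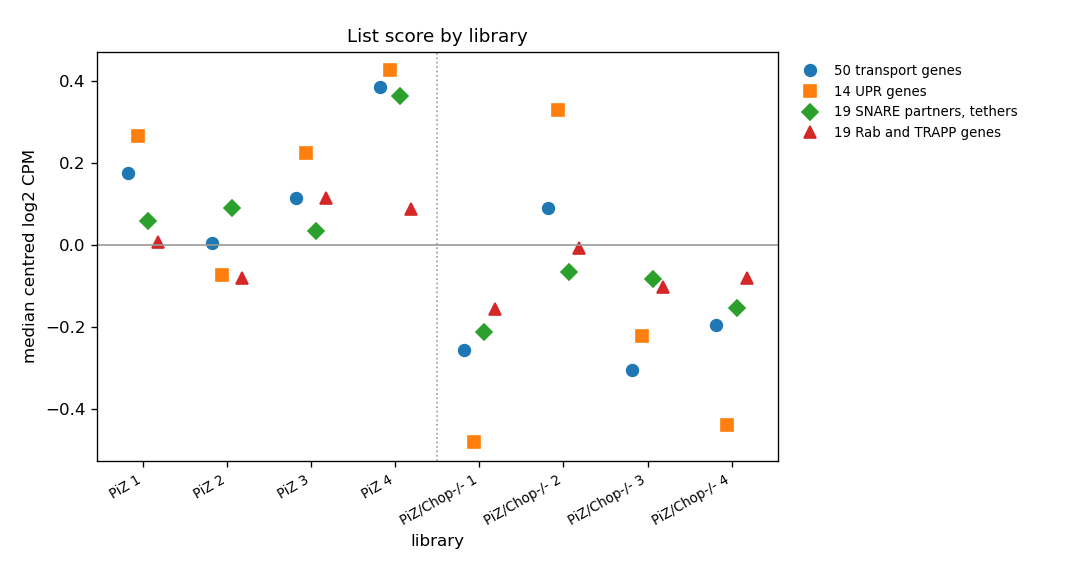
List score (median centred log2 CPM, vertical axis) by library for the 50 transport genes, 14 UPR genes without Ddit3, 19 SNARE partners and tethers, and 19 Rab and TRAPP genes. Transport and UPR scores are highest in PiZ library 4, and PiZ/Chop-/- library 2 is the only library of its group above 0 in both.

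PiZ/Chop-/- library 2 was singled out because it was high in these same genes. Leaving it out lowers its group by construction, so the values without it are no separate support. In that fit, 2 of 51 tested transport genes passed the threshold and were lower, against 1.13% of all genes. They were the p24 genes Tmed9 (log2 fold change -0.98, SE 0.23, adjusted p = 0.0406) and Tmed3 (-1.46, SE 0.34, adjusted p = 0.0416). Sec23b was at -1.53 (adjusted p = 0.0620), Surf4 at -0.79 (0.0855) and Preb at -0.72 (0.0860), above the threshold. The median was -0.38 with 43 of 51 below 0, and groups did not overlap in 14, all lower, against 7.57% of all genes in that fit and direction. With no filter on low counts 3 of 51 fell, against 0.917% of all genes lower there: Tmed3 (adjusted p = 0.00241), Sec23b (0.00955) and Tmed9 (0.0348). Without PiZ libraries 1 and 4 the median was -0.155 and none passed. Groups did not overlap there in 9 of 51 genes lower and 1 higher, against 12% of all genes lower and 10.5% higher. Leaving out PiZ library 4 alone gave a median of -0.18, and Mcfd2, Copa, Arf1 and Arf4 were then at -0.31, -0.037, -0.19 and -0.18.

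Among the other cell types, marker levels also differed between the groups. The 10 Kupffer cell and macrophage markers summed to 990 to 1460 CPM in PiZ and 767 to 932 CPM in PiZ/Chop-/-, with 9 of 10 fold changes below 0. The 10 sinusoidal endothelial markers summed to 221 to 356 CPM in PiZ and 356 to 400 CPM in PiZ/Chop-/-, with 9 of 10 above 0. Stellate cell markers summed to 442 to 828 and 485 to 572 CPM (7 of 10 tested, all below 0). Red cell markers ran from 351 to 832 and from 341 to 1450 CPM (5 of 5 above 0). Neutrophil markers reached 85.6 CPM in PiZ/Chop-/- library 2 and 3.72 to 7.92 CPM in the other 3, against 8.07 to 32.1 CPM in PiZ, and Elane was at 0. Cholangiocyte markers ran from 29.4 to 48.2 and 20.4 to 51.2 CPM, and the 8 lymphocyte markers, none with enough counts for a test, summed to 5.83 to 14.7 CPM in PiZ and 1.39 to 5.59 CPM in PiZ/Chop-/-. The Kupffer sums did not overlap between the groups and were lower in PiZ/Chop-/-. The lymphocyte sums nearly met, at 5.83 CPM in PiZ library 2 and 5.59 CPM in PiZ/Chop-/- library 4. They rest on few counts, so no group difference is read from them. No gene of these lists passed the threshold, and their part in the transport gene values was not tested.

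A wider set of 75 genes of the same pathway held Rab GTPases, TRAPP subunits, further SNAREs, tethers and coat regulators. Of the 65 tested, none passed the threshold, 45 were below 0 and the median was -0.18. The 19 Rab and TRAPP genes had a median of -0.060 with 12 below 0, and 19 SNARE partners and tethers had -0.32 with 16 below 0. The lowest p belonged to Nsf, the ATPase that recycles SNARE complexes. It was at 13.5, 14.1, 13.2 and 18.03 CPM in PiZ and 6.50, 7.47, 6.95 and 5.12 CPM in PiZ/Chop-/- (log2 fold change -1.17, SE 0.30, adjusted p = 0.0788, edgeR). Every PiZ/Chop-/- library, library 2 included, was below every PiZ library, and the spread within each group was small. Groups did not overlap in this direction in 2 of the 65 genes and in 4.22% of all genes. Arfgap3, a GTPase activator of ARF1, had -1.16 (SE 0.46, adjusted p = 0.301) and passed without PiZ/Chop-/- library 2 (-1.94, adjusted p = 0.0171). Sec22a had -0.82 (SE 0.33, adjusted p = 0.304).

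Promoters were searched for stress response elements because the genes leaned one way together. RefSeq windows (GRCm38.p6) were matched for 47 of the 52 genes, and the 250 bases upstream of each start were read on both strands. The motifs were the ER stress element ERSE (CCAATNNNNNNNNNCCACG), ERSE-II (ATTGGNCCACG), the unfolded protein response element UPRE (TGACGTGG) and a CHOP or ATF4 composite element (TGATGCAA). ERSE, ERSE-II and, on its other strand, UPRE share the letters CCACG. UPRE was found in 6 of 47 genes (12.8%), against 60 of 6748 tested genes with a window (0.889%) and 163 of 27025 genes with a window (0.603%). The other 3 were found in none of the 47, and in 0.207%, 0.0741% and 0.697% of tested genes, in the order given. No match says only that these letters are not in this window, and a match is no evidence of binding.

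The 6 genes with the UPRE letters are shown with 30 bases upstream of the RefSeq start each, 5′ to 3′ on the gene's strand, with the match in capitals. They lie at chr3:123267459-123267488 on the plus strand (Sec24d), chr11:59228228-59228257 on the minus strand (Arf1), chr7:114254690-114254719 on the minus strand (Copb1), chr19:46152528-46152557 on the plus strand (Gbf1), chr1:157506741-157506770 on the plus strand (Sec16b) and chr15:79516367-79516396 on the plus strand (Kdelr3).
Sec24d: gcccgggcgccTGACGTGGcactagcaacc
Arf1: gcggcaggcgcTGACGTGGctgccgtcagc
Sec16b: ttctgtgtggcTGACGTGGcacggcagttt
Copb1: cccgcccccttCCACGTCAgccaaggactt
Gbf1: ctagactgaggctagttaCCACGTCAgtga
Kdelr3: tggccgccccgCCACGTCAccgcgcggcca
In 5 of the 6, all but Kdelr3, the match lies upstream of the RefSeq start but inside the gene as GENCODE M21 annotates it. Both signs occurred among those of the 6 genes that were tested, as over all 50 tested transport genes, where 42 were below 0 (84%). Sec24d, Arf1, Copb1 and Gbf1 had -0.55, -0.39, -0.38 and -0.028, Sec16b had 0.51, and Kdelr3 had 0 counts. None of the 5 genes with the lowest p, Sec23b, Surf4, Preb, Tmed9 and Uso1, was among them.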

How the data were processed

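Each of the 8 liver libraries has 1 deposited file of raw counts by gene, per the file headers. Reads of 75 bases from QuantSeq 3' libraries were made per the labels' protocols. Per the submitters' processing notes, STAR, HTSeq and the build mm10 were used, with no versions. Annotation, strand setting, treatment of reads with several matches and duplicate removal: not given in the sources used here. Of 52550 Ensembl IDs, 52403 were found in GENCODE M21, an mm10 annotation that may not be the authors' release; 1 further row is SERPINA1.

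Genes were tested across all genes with edgeR 4.0.16 (R 4.3.3): filterByExpr (minimum count 10), TMM, robust quasi-likelihood fit, no covariate, Benjamini-Hochberg adjustment. SE is the fold change divided by the square root of F. Scores used log2 CPM with a prior count of 2. Only the log2 ratios of the paralog pairs had exact permutation tests, over the 70 assignments of libraries. DESeq2 1.42.0, limma-voom (limma 3.58.1), other scalings and filters, a replicate block and omitted libraries were alternatives. The fit was tested on simulated data. Same-numbered libraries were not paired (correlations of deviations -0.051 to 0.049).

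Members and lists were chosen with earlier results of these data known. Values by library are given for the 2 genes of lowest p in each functional class, for Kdelr1, Kdelr2, Kdelr3, Lman1, Mcfd2 and Surf4, and for companion genes. Sequences are RefSeq's. Intervals and floors cover counting error only. The value of 1 marker gene is not reported here.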

Additional observations from a re-analysis of the deposited data

Results flagged for a closer look

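In 5 of the 100 groups of 4 libraries checked (50 genes in each genotype), 1 library stood far from the other 3. Chance gives about 1 in 20 such groups, which is also the share found. In PiZ library 4, Sec24d was at 57.9 CPM (32.1 to 35.1 in the others), Copg1 at 48.4 CPM (35.1 to 35.7) and Stx5a at 68.3 CPM (33.2 to 38.9). In PiZ/Chop-/- library 2, Sec23b was at 16.7 CPM (7.94 to 8.85 in the others) and Gbf1 at 203.5 CPM (122 to 129). All 5 were the highest of their group, and they fell in these 2 libraries only.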

How the results depend on the processing

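The direction of the transport genes' median was negative under all 17 alternatives, from -0.38 to -0.155, the latter without PiZ libraries 1 and 4. With library size as the only scaling it was -0.36, where the median of all genes was -0.077 and 58.1% of all genes lay below 0. In the main analysis 89 of 8669 genes were called (1.03%). DESeq2 called 209 of 19847 genes (1.05%), and the fit with no filter on low counts called 357 of 19847 (1.8%). When 1 library was left out, 46 to 169 genes were called (0.514% to 1.88%). Of the transport genes, 0 of 50 were called in the main analysis and 3 of 51 with no filter (5.88%). When 1 library was left out, 0 to 2 were called (0% to 3.92%). Counting both directions, groups did not overlap in 5 genes, and in 5 to 14 when 1 library was left out. Without PiZ libraries 1 and 4 they did not overlap in 10, of which 9 were lower and 1 higher. Over all genes, 4.22% did not overlap and were lower and 3.66% higher in the analysis of all 8 libraries. When 1 library was left out, 5.76% to 7.57% were lower and 5% to 7.22% higher. Without those 2 libraries 12% were lower and 10.5% higher. The counts are therefore not comparable across these fits, and each is to be set against both shares of its fit. With the replicate number as a block, 76 genes and 0 transport genes were called, and the median was -0.30; the labels give no pairing, and the correlations of same-numbered libraries were 0.046, -0.051, 0.0061 and 0.049.

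Of 850 fold changes under alternatives, 44 had the other sign, in 16 genes, and the cause was not tested. With library size only, Sar1b was -0.038, Kdelr1 -0.073 and Golga2 -0.055; with no filter Mia2 was 0.0037. Without PiZ libraries 1 and 4, Sar1b was -0.019, Sec24c 0.083, Sec13 0.014, Ergic2 -0.051, Tmed1 0.17, Tmed4 0.15, Tmed7 0.18, Copa 0.15, Arcn1 0.13 and Golga2 -0.044. When 1 library was left out, Sar1b ran from -0.080 to 0.14, Sec24a from -0.030 to 0.34, Mia2 from -0.063 to 0.092, Lman2 from -0.22 to 0.093, Ergic2 from -0.038 to 0.31, Tmed1 from -0.24 to 0.12, Tmed4 from -0.40 to 0.032, Tmed5 from -0.21 to 0.089, Kdelr1 from -0.093 to 0.087, Arcn1 from -0.20 to 0.15, Gbf1 from -0.23 to 0.050 and Golga2 from -0.039 to 0.13. No detection limit was computed for genes of low count.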
